A study of Homo sapiens with 12 samples.

Results

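BMAL1 was knocked down in WT8 cells, a derivative of the clear cell renal cell carcinoma line 786O in which wildtype VHL is expressed again. The comparison takes 6 of the 12 RNA-seq samples of the series, which are the 3 WT8 cultures with an shRNA against BMAL1 (shBMAL1) and the 3 WT8 cultures with a scrambled control shRNA (shControl). The other 6 samples are the same pair of shRNAs in 786O cells, which lack functional VHL, and are used only where the response of WT8 cells is set against that line. The comparison asks how transcript levels differ when BMAL1 is depleted in cells that have VHL. All 4 groups carried a lentiviral pLKO.1 construct, were selected in puromycin for 1 week and grew in serum-containing medium. Only 1 shRNA against BMAL1 is named in the labels, so an effect of that hairpin on other transcripts cannot be told apart from the loss of BMAL1. The promoter that drives VHL in WT8 cells and whether the cells are 1 clone are not given in the sources used here, nor is a synchronisation of the clock before RNA was taken. The labels call the replicates biological replicates, and do not say whether each came from its own infection.

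BMAL1, whose gene symbol in the files is ARNTL, is a bHLH-PAS transcription factor that pairs with CLOCK, binds E-box sequences and drives the period, cryptochrome and REV-ERB genes of the circadian clock. VHL is the substrate-binding part of the ubiquitin ligase that removes hydroxylated HIF alpha subunits, so restoring it lowers HIF activity in kidney cancer cells. Genes for DNA replication and mitosis are transcribed together in dividing cells. In resting cells, RB family proteins hold them down through E2F sites and through the cell cycle genes homology region (CHR) in their promoters.

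The 6 WT8 libraries held 33182005 to 36324270 counts, against 33182005 to 36477484 over all 12, and a library of the series had 15127 to 15953 genes with 10 counts or more. Values below are counts scaled to a common library total (CPM), scaled between libraries by TMM, and changes are log2 fold changes of shBMAL1 against shControl with their standard error (SE). A gene was called when its adjusted p was under 0.1 in edgeR's quasi-likelihood test over all 16838 genes tested. Kidney epithelial markers were present, with 8 of 8 markers over the floor of 3 counts, and PAX8, a kidney lineage factor, was at 1335 CPM with shControl and 948.2 CPM with shBMAL1. Of the markers of other cell types, 4 of 8 endothelial, 2 of 6 fibroblast and 4 of 6 leukocyte genes had at most 3 counts in every WT8 library. The leukocyte gene PTPRC and the fibroblast genes DCN and PDGFRA were among them, while of the other fibroblast genes 2 were called higher and 2 lower. LUM was at 0.515 CPM with shControl and 7.23 CPM with shBMAL1, THY1 at 0.906 and 2.25 CPM, PDGFRB at 5.46 and 1.04 CPM, and COL1A1 at 2.65 and 2.05 CPM. A set of 12 genes that 786O cells expressed and WT8 shControl cells lacked summed to 0.0816 to 0.377 CPM in WT8 shControl, 0.292 to 0.882 CPM in WT8 shBMAL1 and 497 to 509 CPM in 786O shControl libraries. Mitochondrial transcripts took 3.91 to 4.29% of counts with shControl and 3.38 to 4.19% with shBMAL1. The part of these differences in the results was not tested.

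The targeted gene was measured first. ARNTL (chr11:13298199-13408813, plus strand, GRCh37) was at 9.03, 10.3 and 8.4 CPM in the 3 shControl libraries and 1.49, 1.93 and 1.55 CPM in the 3 shBMAL1 libraries. No shBMAL1 library came near the control range, and the transcript fell (log2 fold change -2.48, SE 0.14, adjusted p = 2.66e-17). These levels rest on 332, 355 and 309 counts with shControl and 56, 72 and 58 counts with shBMAL1. VHL (chr3:10183462-10195351, plus strand) is the gene that WT8 cells express again, and reads from the introduced and the endogenous copy were not separated. It was at 1006, 916 and 1020.0 CPM with shControl and 661, 631 and 648 CPM with shBMAL1, against 18.8 CPM on average in 786O shControl cells. The WT8 groups did not overlap, and VHL fell with shBMAL1 (log2 fold change -0.60, SE 0.05, adjusted p = 6.67e-13).

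The response covered most of the transcriptome. Of the genes tested, 69.8% were called, 32.9% higher and 36.9% lower with shBMAL1, so that a call by itself says little about any gene group. The counts of every list below are to be read beside these shares. The excess of lower calls, 6211 against 5542, depended on the scaling, and with TMM factors computed without the proliferation genes 5925 genes were called higher and 5875 lower. Changes over 2-fold were fewer, with 1206 genes (7.16%) higher and 2247 genes (13.3%) lower. The median over all genes tested was -0.04. In 786O cells, 24.5% of genes were called higher and 24.4% lower. The change with shBMAL1 differed between the lines, in an interaction test, for 27.4% of genes in the direction more positive in WT8 and for 28.5% in the direction more negative. In 786O cells the lowest log2 fold change among the 18 clock genes tested, ARNTL included, was -1.77, against -2.48 for ARNTL in WT8. The knockdown was thus less deep in 786O cells, and its part in the differences between the lines was not tested. In bulk RNA, a different share of cells in a given state and a different amount of a transcript per cell cannot be told apart, and this holds for every result below.

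The 154 genes of 5 proliferation lists stood apart from the rest. These lists were chosen with earlier results of these data known, so the counts describe the members chosen. Every one of the 154 was called higher with shBMAL1, beside 32.9% of all genes tested, and 147 were over 2-fold higher, beside 7.16%. Their median log2 fold change was 2.26, with a range of 0.16 to 4.08. Outside these lists, 16684 genes had a median of -0.05, with 5388 called higher and 6211 called lower. The plot of changes in and outside the lists shows the list genes in WT8 as a separate hump to the right of a distribution centred near no change.

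**Figure D1:**
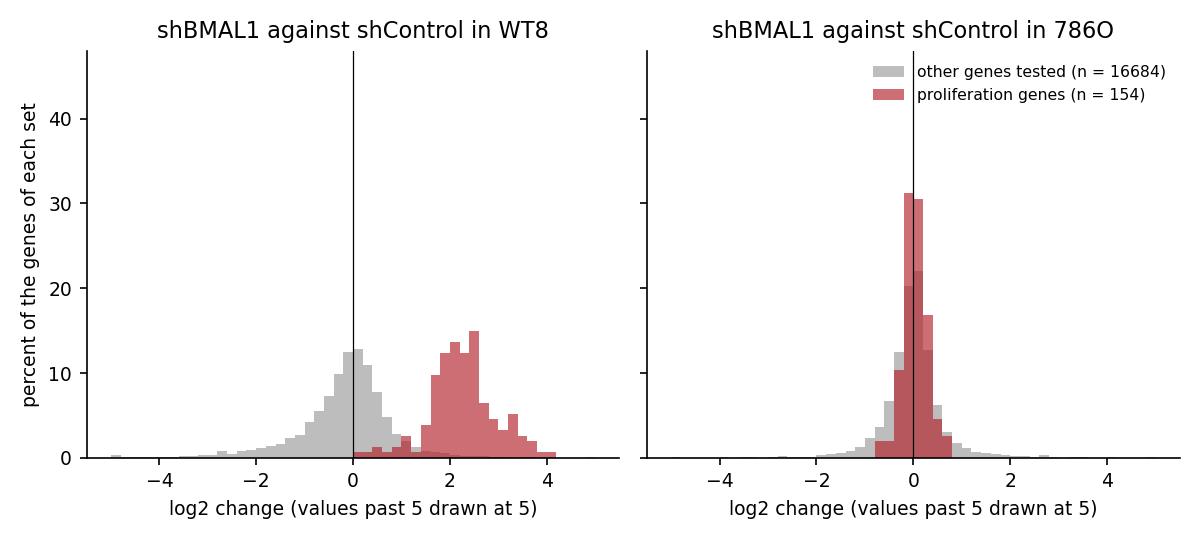
Distribution of log2 fold changes of shBMAL1 against shControl in WT8 (left) and in 786O cells (right), as the percent of genes in each bin. The 154 genes of the proliferation lists and the 16684 other genes tested are drawn apart, and values past 5 in either direction are drawn at 5. In WT8 cells the list genes centre on their median of 2.26, and the other genes on -0.05. In 786O cells the list genes have a median of 0.02.

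Among the replication genes, CDC45, GINS2 and CLSPN had the largest changes. CDC45, the helicase cofactor that starts unwinding at origins, was at 2.01, 2.52 and 2.75 CPM with shControl and 35.3, 33.5 and 33.6 CPM with shBMAL1 (log2 fold change 3.81, SE 0.09, adjusted p = 1.64e-28). GINS2, a subunit of the same helicase, was at 3.02, 3.94 and 4.16 CPM with shControl and 51.1, 46.1 and 55.6 CPM with shBMAL1 (log2 fold change 3.78, SE 0.09, adjusted p = 2.66e-28). CLSPN, which links the replication fork to the checkpoint kinase CHK1, was at 5.44, 6.55 and 6.17 CPM with shControl and 78.2, 78.9 and 80.9 CPM with shBMAL1 (log2 fold change 3.71, SE 0.07, adjusted p = 8.75e-32). In none of these 3 genes did the shBMAL1 libraries overlap the controls. The 6 subunits of the MCM helicase rose by log2 1.60 for MCM2 up to 3.25 for MCM5, and the licensing factors CDC6 and CDT1 rose by 3.29 and 3.16. PCNA, the sliding clamp of the polymerases, rose from 36.9 ± 1.78 to 133 ± 3.74 CPM (mean ± SD, n = 3). The smallest rise of the list was that of POLE2, a polymerase epsilon subunit, at 0.56. All 38 replication genes were called higher, and their summed level rose from 724.1 ± 11.5 CPM to 3445 ± 76.4 CPM.

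The enzymes that make deoxynucleotides moved with them. All 6 genes of the list were called higher, with a median of 2.19. RRM2, the regulated subunit of ribonucleotide reductase, rose from 31.1 ± 1.54 to 186 ± 4.39 CPM, and TYMS, which makes thymidylate, from 28.6 ± 1.27 to 163 ± 8.8 CPM. TK1, the salvage thymidine kinase of S phase, rose from 34 ± 0.744 to 134 ± 12.1 CPM.

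Among the regulators of S phase entry, the E2F genes and MYBL2 had the largest changes. E2F8, an E2F family repressor expressed in S phase, was at 1.17, 1.77 and 1.52 CPM with shControl and 25, 23.8 and 26.3 CPM with shBMAL1 (log2 fold change 4.08, SE 0.11, adjusted p = 7.43e-27), the largest log2 change of the 154 genes. MYBL2, which activates mitotic genes together with the MuvB complex, was at 52.5, 54.5 and 55.5 CPM with shControl and 651, 609 and 628 CPM with shBMAL1 (log2 fold change 3.54, SE 0.05, adjusted p = 1.90e-35). The levels of neither gene overlapped between the groups. E2F1 and E2F2, activators of S phase genes, rose by log2 3.32 and 3.28, and CCNA2, the cyclin of S and G2 phase, by 2.76. FOXM1, an activator of G2 and mitotic genes, rose from 38.6 ± 1.17 to 189 ± 0.259 CPM. The smallest rises of this list were those of SKP2, the F-box protein that marks p27 for destruction, at 0.70, and CCNE1, cyclin E1, at 0.85.

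The 76 mitotic genes had a median of 2.12, and their summed level rose from 2500 ± 75.6 CPM to 9974 ± 153 CPM. SPC24, a subunit of the NDC80 kinetochore complex, was at 1.09, 0.696 and 1.39 CPM with shControl and 14.3, 14.5 and 14.4 CPM with shBMAL1 (log2 fold change 3.75, SE 0.14, adjusted p = 3.44e-23). MKI67, which encodes the proliferation marker Ki-67, was at 65.9, 77.3 and 65.4 CPM with shControl and 364, 358 and 343 CPM with shBMAL1 (log2 fold change 2.35, SE 0.07, adjusted p = 7.37e-17). The control and knockdown libraries of both genes were far apart, although SPC24 overlaps another gene on the opposite strand. CDK1, the mitotic kinase, rose by log2 2.44, its partners CCNB1 and CCNB2 each by 1.85, and TOP2A, topoisomerase II alpha, by 2.12. AURKB, the kinase of the chromosome passenger complex, rose by 2.58 and PLK1, polo-like kinase, by 2.25. The genes with the smallest rises, named here after their values were seen, were FAM64A (0.24) and the phosphatase CDC25B (0.43).

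Genes for recombination repair, which is active when a sister chromatid is at hand, had a median of 2.49 over 20 genes. BRCA1 and BRCA2, which act in the repair of double-strand breaks, rose by log2 2.40 and 2.71, and FANCD2, a Fanconi anaemia protein, by 2.41. PALB2, the link between BRCA1 and BRCA2, changed least of all 154 genes, from 24.1 ± 1.23 to 26.8 ± 1.26 CPM (log2 fold change 0.16, SE 0.07, adjusted p = 0.054).

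The same genes were high in 786O cells with either shRNA. In 786O the median of the 154 genes was 0.02, with 53 called higher, 37 called lower and 64 not called, against 24.5% and 24.4% of all genes. The interaction was called in the direction more positive in WT8 for 152 of the 154, beside 27.4% of all genes. The summed replication genes stood at 3819 CPM in 786O shControl and 3953 CPM in 786O shBMAL1 cells, and the mitotic genes at 10130 and 10400 CPM. MKI67 averaged 401 CPM in 786O shControl. WT8 shControl libraries lay well under the other 3 groups in each of the 5 lists, and the WT8 shBMAL1 libraries lay near the level of 786O cells, above it for the regulators of S phase entry (1440 against 1187 CPM) and below it for the other lists. The plot of summed levels shows the 3 libraries of each group for every list.

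**Figure D2:**
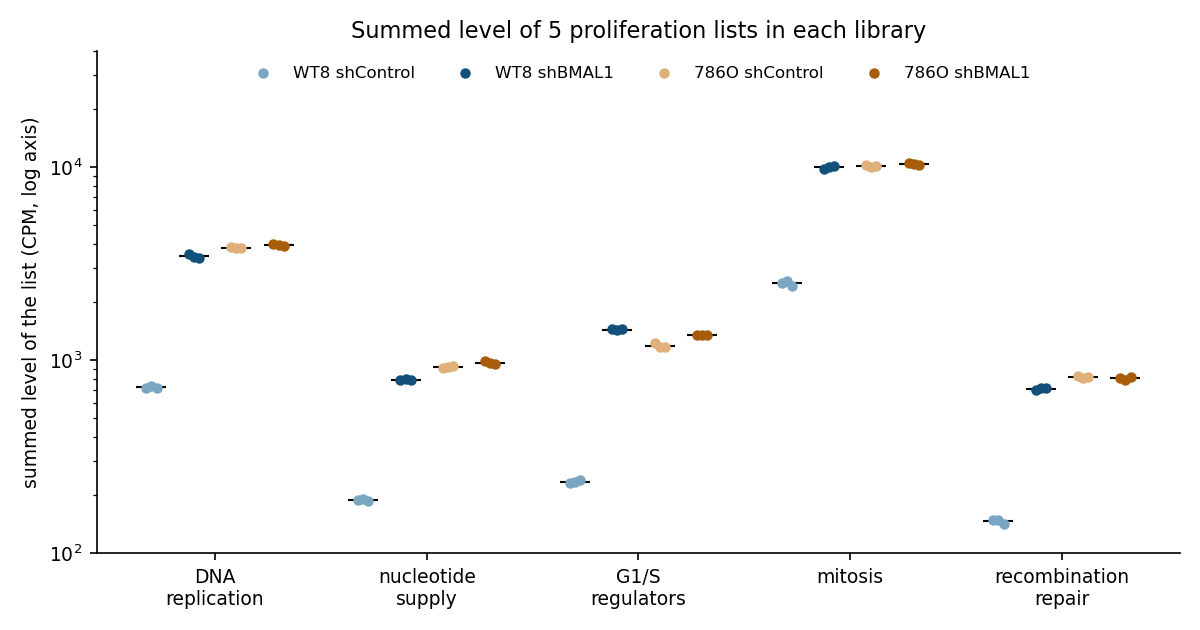
Summed level of each of the 5 proliferation lists, in CPM on a log axis, in the 3 libraries of each of the 4 groups. In every list the WT8 shControl libraries lie below all others, for example at 724.1 CPM on average for DNA replication against 3445 CPM in WT8 shBMAL1.

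Promoters of the proliferation genes were read for 3 sequence motifs known from cell cycle genes, in RefSeq windows of 250 bases before to 50 after the annotated start (GRCh38.p14, both strands), which were matched for 131 of the 154. The CHR, read as TTTGAA or as its variant TTCGAA, was found in 38.9% of them, beside 16.6% of all 27305 promoters and 11.4% of the promoters of genes tested. The CCAAT box (CCAAT) was found in 61.1%, beside 35.7% of all promoters and 36% of those of genes tested. An E2F site was read as TTTGGCG, or in place of that TTTCGCG, or as the variant TTTCCCG. It was found in 31.3%, beside 7.28% of all promoters and 10.7% of those of genes tested. In the 766 promoters of genes outside the lists that rose over 2-fold, the CHR occurred in 21.3%, the CCAAT box in 45.6% and the E2F site in 16.2%. These promoters are not free of proliferation genes, since 131 of the 1059 genes from which they were matched are in a wider list described below. In the 1511 promoters of genes that fell over 2-fold, the shares were 11.7%, 31.8% and 6.95%. A match describes letters in this window and is no evidence that a factor binds there.

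To show what such promoters look like, 4 windows of 130 bases before to 20 after the start are printed on the strand of the gene, from the genes with the largest changes whose windows hold the motifs. Capitals mark the CHR and CCAAT box in SPC25 (chr2:168890411-168890560, minus strand) and SGO1 (chr3:20186187-20186336, minus strand), the CCAAT box and E2F site in CDC45 (chr22:19479790-19479939, plus strand), and the E2F site in GINS2 (chr16:85688935-85689084, minus strand), on either strand. SPC25, a partner of SPC24 in the kinetochore, rose by log2 2.92 and SGO1, which protects centromeric cohesion, by 2.53.
SPC25: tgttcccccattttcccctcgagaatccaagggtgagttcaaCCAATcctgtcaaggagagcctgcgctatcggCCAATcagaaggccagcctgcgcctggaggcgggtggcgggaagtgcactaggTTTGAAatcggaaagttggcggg
SGO1: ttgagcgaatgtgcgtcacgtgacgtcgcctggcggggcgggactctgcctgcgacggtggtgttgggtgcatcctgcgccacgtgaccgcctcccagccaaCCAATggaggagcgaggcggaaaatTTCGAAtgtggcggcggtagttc
CDC45: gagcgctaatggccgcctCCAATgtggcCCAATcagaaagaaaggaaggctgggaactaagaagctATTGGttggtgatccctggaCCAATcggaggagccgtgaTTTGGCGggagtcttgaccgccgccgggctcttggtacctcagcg
GINS2: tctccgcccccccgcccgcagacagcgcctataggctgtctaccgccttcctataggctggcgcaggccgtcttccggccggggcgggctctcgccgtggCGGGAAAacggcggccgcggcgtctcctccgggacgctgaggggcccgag
In SPC25 and SGO1 the CHR lies close to the start, with a CCAAT box upstream of it.

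The inhibitors and cyclins that act upstream of S phase entry did not move as 1 group. Of 15 genes in this list, 12 were tested, of which 6 were called higher and 5 lower, at a median of 0.10. CCND1, cyclin D1, was at 382, 365 and 409 CPM with shControl and 122, 119 and 121 CPM with shBMAL1, and fell without overlap (log2 fold change -1.67, SE 0.04, adjusted p = 1.80e-27). CDKN1C, the inhibitor p57, fell from 5.4 ± 0.486 to 0.757 ± 0.433 CPM (log2 fold change -2.83, SE 0.26, adjusted p = 3.46e-11). CDKN2C, the inhibitor p18, fell by log2 0.35 and CCNG2, an atypical cyclin, by 0.85, while RBL2, the pocket protein p130 of resting cells, was at 75, 77.5 and 78.8 CPM with shControl and 71.1, 72 and 71.9 CPM with shBMAL1, a small fall (log2 fold change -0.11, SE 0.05, adjusted p = 0.055). The p21 gene CDKN1A rose slightly, from 37.7 ± 1.94 to 41.3 ± 0.537 CPM (log2 fold change 0.13, SE 0.05, adjusted p = 0.034), and the p27 gene CDKN1B was not called (log2 fold change 0.06, SE 0.07, adjusted p = 0.45). The call for CDKN1A was lost without WT8 shControl replicate 3 (adjusted p = 0.165), and that for RBL2 in 7 alternatives, among them WT8 libraries alone (adjusted p = 0.178). CDKN2D (p19) rose from 8.24 ± 0.966 to 16.9 ± 2.12 CPM, CCND3, cyclin D3, from 25.1 ± 2.0 to 49.2 ± 2.35 CPM, CDK6 from 7.13 ± 0.472 to 14 ± 0.882 CPM, CDK4 from 139 ± 1.9 to 194 ± 8.31 CPM and RB1, the retinoblastoma protein gene, from 37.4 ± 2.1 to 63.2 ± 0.548 CPM. CDKN2A, the p16 gene, had 0 counts in all 6 WT8 libraries and CCND2, cyclin D2, at most 3, and neither was tested. Cyclin D1 thus fell while cyclin D3 and both of its kinases rose.

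Targets of p53 were mixed, with 6 of 18 called higher and 10 lower and a median of -0.36. GDF15, a secreted stress cytokine, fell from 37.5 ± 3.92 to 3.66 ± 0.815 CPM (log2 fold change -3.35, SE 0.10, adjusted p = 1.27e-22), and PLK3, a stress-induced kinase, from 40.2 ± 0.434 to 15.6 ± 0.555 CPM. DDB2, a DNA damage recognition protein, rose from 5.49 ± 0.918 to 14.1 ± 1.15 CPM.

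Most of the genes that rose over 2-fold were in none of the proliferation lists. Of the 1206, 147 (12.2%) were in the 5 lists, 278 (23.1%) in a wider list of 328 genes of replication, chromatin assembly and division, which was added after the values were seen, and 928 (76.9%) in neither. The wider list had 319 genes that rose and 4 that fell, and its median was 1.95. At a mean of at least 5 CPM over the 6 WT8 libraries, the largest rises outside the 5 lists included several genes with known parts in DNA metabolism or division. FAM111B was at 1.9, 2.29 and 1.99 CPM with shControl and 31.5, 31.1 and 27.9 CPM with shBMAL1 (log2 fold change 3.87, SE 0.10, adjusted p = 1.02e-27). MND1, a recombination cofactor, rose from 0.764 ± 0.201 to 9.57 ± 0.968 CPM, NEIL3, a DNA glycosylase, from 0.988 ± 0.433 to 10.6 ± 0.226 CPM, and CENPH, a centromere protein, from 1.4 ± 0.393 to 13.7 ± 1.28 CPM. PKMYT1, an inhibitory kinase of CDK1, rose from 8.97 ± 0.761 to 79.6 ± 3.24 CPM, ESCO2, a cohesin acetyltransferase, from 1.61 ± 0.316 to 14.3 ± 0.388 CPM, MMS22L, a fork repair protein, from 5.13 ± 0.572 to 44.5 ± 3.51 CPM, and WDR76 from 4.24 ± 0.294 to 41.3 ± 3.1 CPM. ESCO2 and PKMYT1 overlap other genes on the opposite strand, ESCO2 among them the proliferation gene PBK.

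The largest rises at this level outside the wider list as well are named next, and some of these genes may still have parts in division. C4BPB, a subunit of the complement regulator C4b-binding protein, was at 1.2, 1.22 and 0.517 CPM with shControl and 11.4, 12.3 and 10.8 CPM with shBMAL1 (log2 fold change 3.56, SE 0.28, adjusted p = 1.22e-09). FAM65B rose from 1.54 ± 0.0851 to 17.1 ± 1.16 CPM, ZNF699, a zinc finger gene, from 2.17 ± 0.355 to 18 ± 1.0 CPM, and ANKRD1, a target of YAP and TEAD, from 7.91 ± 1.56 to 50.5 ± 2.39 CPM. PALM3 rose from 3.84 ± 0.683 to 24.5 ± 0.984 CPM (log2 fold change 2.67, SE 0.13, adjusted p = 1.10e-19) and also rose in 786O cells (log2 2.79), while FAM65B was not called there (log2 -2.70, adjusted p = 0.19). The others by this rule, ARID3A, RASGEF1B, C1orf112, ZNF714, SCLY, DDIAS and LOC642846, rose by log2 2.50 to 2.66, and the shBMAL1 libraries of each lay above its controls.

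By difference in CPM, which also grows with transcript length and level, the largest rises among genes changed over 2-fold were those of tubulins. TUBA1B was at 871, 822 and 885 CPM with shControl and 3103, 3083 and 3231 CPM with shBMAL1 (log2 fold change 1.87, SE 0.04, adjusted p = 1.61e-29). TUBB rose from 1163 ± 23.3 to 2774 ± 13.5 CPM and TUBA1C from 844 ± 31.6 to 1797 ± 38.1 CPM. These genes have near-identical copies between which reads may have been split, so the level of a single tubulin gene is uncertain. FLG, the filament-binding protein filaggrin, was more variable, at 304, 369 and 338 CPM with shControl and 1167, 983 and 775 CPM with shBMAL1 (log2 fold change 1.53, SE 0.17, adjusted p = 4.11e-05), and it overlaps an antisense gene.

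The falls outside the proliferation lists were more numerous than the rises there, with 2247 genes over 2-fold lower and 1059 over 2-fold higher. TIE1, an orphan receptor tyrosine kinase of endothelial cells (chr1:43766653-43788779, plus strand), had 526, 531 and 527 counts with shControl and 1, 5 and 2 counts with shBMAL1, which is 14.3, 15.4 and 14.3 and 0.0266, 0.134 and 0.0535 CPM. The transcript was all but lost, and its fitted change, which depends on the small counts left, was the largest among genes with a mean of at least 5 CPM over the 6 WT8 libraries (log2 fold change -7.62, SE 0.25, adjusted p = 9.51e-25). Of 8 endothelial markers, CDH5, EMCN, KDR and ROBO4 had at most 3 counts in all WT8 libraries. PECAM1 was called lower, with 23, 21 and 32 counts with shControl and 6, 15 and 8 with shBMAL1, and VWF, ESAM and TEK, of 4 to 31 counts, were not called. MMP1, interstitial collagenase (chr11:102660132-102668891, minus strand), was at 20.7, 20.6 and 17.8 CPM with shControl and 0.16, 0.428 and 0.268 CPM with shBMAL1 (log2 fold change -6.09, SE 0.18, adjusted p = 8.77e-26). VAV3, a guanine nucleotide exchange factor, fell from 10.8 ± 1.14 to 0.24 ± 0.134 CPM (log2 fold change -5.47, SE 0.22, adjusted p = 3.58e-22). SLC6A13, a GABA transporter, fell from 18.3 ± 1.1 to 0.721 ± 0.0826 CPM, and LRG1, a secreted glycoprotein of the acute phase, from 16.4 ± 2.22 to 0.667 ± 0.213 CPM. BGN, the matrix proteoglycan biglycan, fell from 10.6 ± 1.53 to 0.481 ± 0.14 CPM, and DENND2A, an exchange factor for RAB GTPases, from 15.5 ± 0.325 to 0.783 ± 0.121 CPM. IGFBP1, which binds insulin-like growth factors, fell from 18.7 ± 1.67 to 0.89 ± 0.012 CPM, and SERPINF2, the inhibitor of plasmin, from 23 ± 0.49 to 1.31 ± 0.0264 CPM. VAV3, BGN and DENND2A each overlap a gene on the opposite strand. None of these genes had a shBMAL1 library within its control range. IGFBP1, SERPINF2 and MMP1 were called higher with shBMAL1 in 786O cells, at log2 1.01, 0.57 and 1.52.

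Among genes changed over 2-fold, the falls that were largest by difference in CPM were in surface, matrix and metabolic genes. AKR1B1, the aldose reductase of the polyol pathway, was at 3748, 3561 and 3586 CPM with shControl and 1626, 1516 and 1480.0 CPM with shBMAL1 (log2 fold change -1.24, SE 0.04, adjusted p = 1.73e-24). SPP1, the secreted matrix protein osteopontin, fell from 1618 ± 36.8 to 306 ± 11.1 CPM (log2 fold change -2.40, SE 0.04, adjusted p = 8.75e-32). CD24, a glycosylated surface protein whose sequence has near-identical copies, fell from 1038 ± 24.8 to 146 ± 4.45 CPM (log2 fold change -2.83, SE 0.04, adjusted p = 5.59e-34). ITGA3, integrin alpha 3, fell from 1635 ± 16.4 to 608 ± 25.9 CPM, and PLOD2, which hydroxylates collagen lysines, from 1017 ± 44.8 to 318 ± 7.49 CPM. The plot of 12 genes by library shows the control and knockdown libraries of these groups apart, with ARNTL and EPAS1 among those that fell and MKI67 and CDC45 among those that rose.

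**Figure D3:**
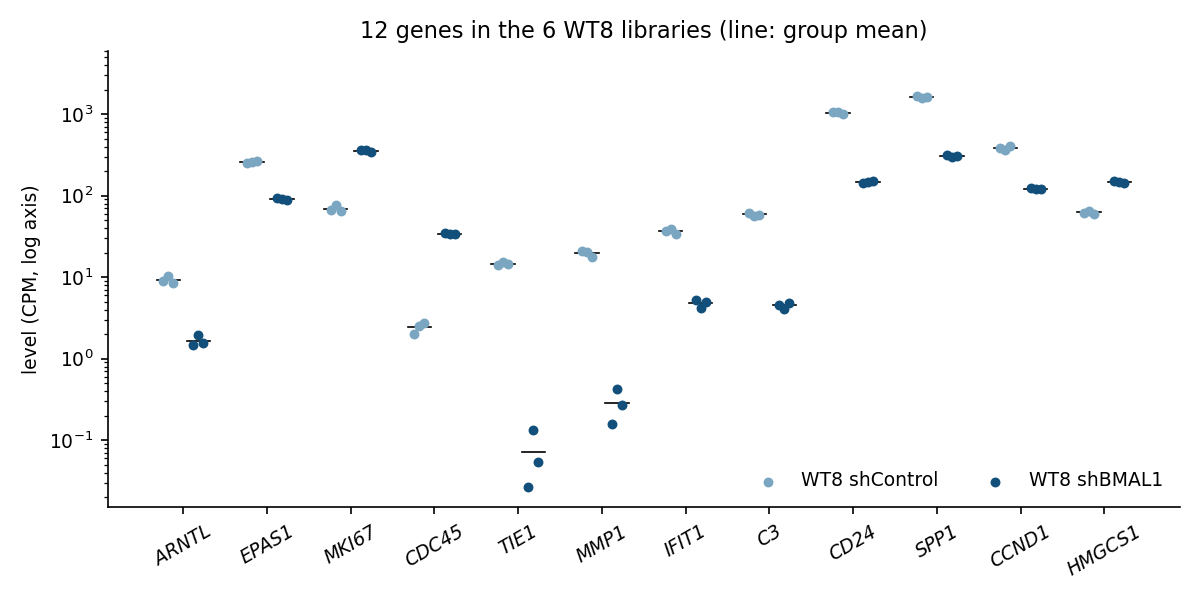
Level of 12 genes, in CPM on a log axis, in the 3 shControl and 3 shBMAL1 libraries of WT8 cells. For each gene the points of the groups do not overlap, with MKI67, CDC45 and HMGCS1 higher with shBMAL1 and the other 9 lower.

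Of 8 genes for HIF subunits and their regulators tested, 5 were called lower with shBMAL1, VHL among them, and 1 higher. The shares over all genes were 36.9% and 32.9%. EPAS1, which encodes HIF2 alpha, the main HIF subunit of this cancer, was at 249, 259 and 269.5 CPM with shControl and 92.5, 90.9 and 88.9 CPM with shBMAL1 (log2 fold change -1.51, SE 0.05, adjusted p = 8.25e-26). HIF1A was at 40.4, 37.5 and 38.4 CPM with shControl and 18, 17.2 and 19.4 CPM with shBMAL1 (log2 fold change -1.09, SE 0.06, adjusted p = 5.04e-17), and it rose in 786O cells (log2 fold change 0.43, SE 0.06, adjusted p = 2.26e-07). Both HIF alpha transcripts fell in WT8 cells without overlap. The shared partner ARNT was at 35.6, 36 and 36.5 CPM with shControl and 35.8, 32.3 and 32.3 CPM with shBMAL1 and was not called (log2 fold change -0.11, SE 0.07, adjusted p = 0.15), although without WT8 shBMAL1 replicate 1 its adjusted p was 0.068. The related ARNT2 was low and fell from 2.22 ± 0.416 to 0.837 ± 0.0817 CPM (log2 fold change -1.41, SE 0.19, adjusted p = 6.81e-08). EGLN3, a HIF prolyl hydroxylase and itself a HIF target, fell from 4.11 ± 0.335 to 0.641 ± 0.14 CPM.

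Of 28 HIF target genes tested, 20 were called lower, beside 36.9% of all genes, and 5 higher, with a median of -0.82. ANGPTL4, an inhibitor of lipoprotein lipase, was at 202, 187 and 201 CPM with shControl and 25.8, 25.4 and 26.1 CPM with shBMAL1 (log2 fold change -2.93, SE 0.06, adjusted p = 1.21e-30). NDRG1, a gene of the hypoxic and stress response, fell from 334 ± 9.63 to 53.6 ± 1.57 CPM and IGFBP3, which binds insulin-like growth factors, from 105 ± 4.52 to 17.7 ± 2.05 CPM. VEGFA, the angiogenic growth factor, fell by log2 1.59, SLC2A1, the glucose transporter GLUT1, by 1.47 and PLIN2, the lipid droplet coat, by 2.04. Hexokinase 2 (HK2) and PDK1, which blocks pyruvate oxidation, were called higher, at log2 0.32 and 0.59. In 786O cells the median of the list was -0.01. The HRE core (ACGTG, which also occurs within the E-box CACGTG) was found in 9 of 21 matched promoters of the list (42.9%). It was found in 21.6% of all promoters and 26% of the promoters of genes tested. Its share was 31.3% in the proliferation lists, 50% in the clock list and 18.2% in the interferon list. Genes of glycolysis and lactate, part of which are also HIF targets, were split, with 8 of 19 called higher and 6 lower. ENO2, an enolase, fell from 42.6 ± 1.44 to 13.6 ± 0.965 CPM and HK1 from 232 ± 10.2 to 157 ± 11.4 CPM, while LDHB, a lactate dehydrogenase, rose from 1078 ± 32.5 to 1597 ± 32.2 CPM.

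The clock genes moved in both directions, 10 of 18 tested being called higher and 7 lower, and the list median was 0.42. The remaining gene, BHLHE41, was at 14.8 ± 1.56 CPM with shControl and 15.5 ± 1.65 CPM with shBMAL1. Among the activators, CLOCK, the partner of BMAL1, rose from 25.4 ± 1.66 to 34.8 ± 2.15 CPM (log2 fold change 0.45, SE 0.07, adjusted p = 5.29e-07), ARNTL2, the paralogue of BMAL1, rose from 34.6 ± 3.47 to 53.2 ± 2.14 CPM (log2 fold change 0.62, SE 0.06, adjusted p = 5.96e-11), and NPAS2, the paralogue of CLOCK, fell from 9.4 ± 0.482 to 6.93 ± 0.972 CPM. Of the repressors, PER2 was at 3.75, 3.08 and 3.48 CPM with shControl and 13.6, 14 and 13.9 CPM with shBMAL1 (log2 fold change 2.01, SE 0.11, adjusted p = 5.40e-18). CRY1 rose from 44.3 ± 0.903 to 89.6 ± 1.8 CPM, CRY2 from 7.0 ± 0.0401 to 16.6 ± 2.65 CPM, PER3 from 7.55 ± 1.05 to 14.4 ± 1.58 CPM and PER1 from 12.5 ± 1.16 to 16.4 ± 1.27 CPM. Each of the 5 period and cryptochrome genes thus rose while the activator they oppose was knocked down.

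Several other outputs of the clock fell. DBP, an output transcription factor of the PAR bZIP family, was at 3.23, 3.28 and 2.83 CPM with shControl and 0.558, 0.695 and 0.616 CPM with shBMAL1 (log2 fold change -2.31, SE 0.30, adjusted p = 1.66e-08). NR1D1, the repressor REV-ERB alpha, fell from 7.35 ± 0.439 to 3.23 ± 0.201 CPM (log2 fold change -1.19, SE 0.13, adjusted p = 6.74e-10), NR1D2, REV-ERB beta, from 49.2 ± 4.43 to 32.1 ± 1.28 CPM, and BHLHE40, the repressor DEC1, from 126 ± 6.03 to 61.1 ± 2.11 CPM. NFIL3, which REV-ERB proteins repress, fell from 35.2 ± 2.34 to 28.4 ± 0.354 CPM. The other PAR bZIP genes were low and rose, TEF from 2.61 ± 0.263 to 4.23 ± 0.174 CPM and HLF from 2.06 ± 0.585 to 4.41 ± 0.0559 CPM. CIART, a repressor of the CLOCK and BMAL1 pair, was near the detection limit at 0.571, 0.261 and 0.245 CPM with shControl and 0.346, 0.829 and 0.616 CPM with shBMAL1, and its call was lost in 6 alternatives, with an adjusted p of up to 0.373 without WT8 shBMAL1 replicate 2. RORA, an activator of ARNTL, was too low to be tested. The plot of clock genes sets these changes beside those of 786O cells, where 6 of the 18 were called higher and 6 lower. The log2 fold changes there were -0.66 for NR1D1, 0.89 for PER2 and 0.61 for CRY1, all called. DBP, at -0.44, was not called (adjusted p = 0.45). Opposite to WT8, PER1, PER3 and TEF were called lower in 786O cells, and NPAS2 and NFIL3 higher.

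**Figure D4:**
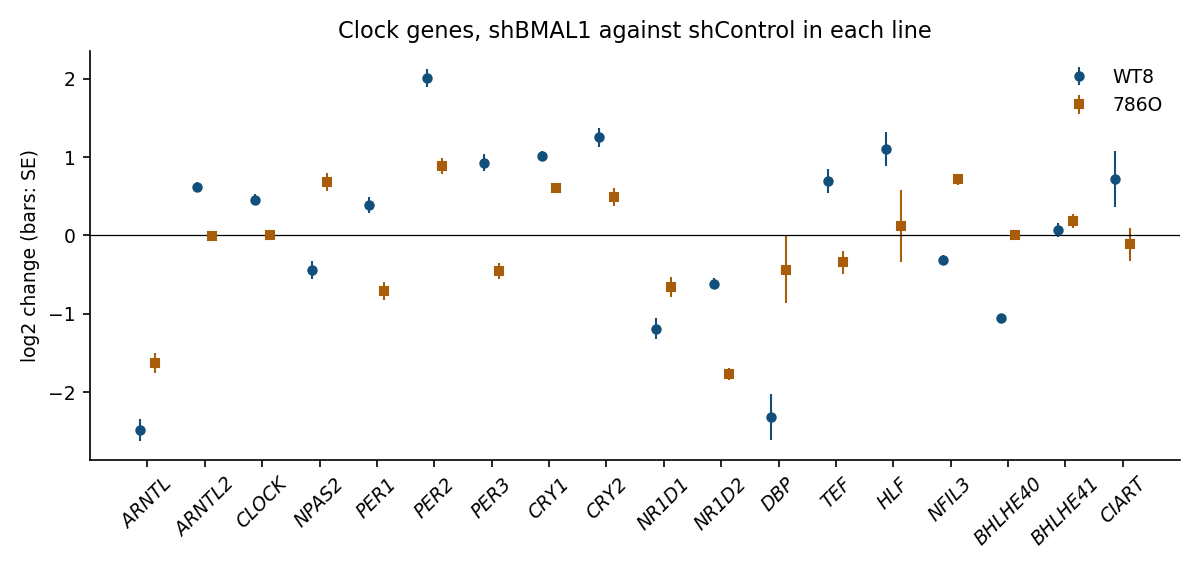
Log2 fold change of shBMAL1 against shControl for the 18 clock genes tested, in WT8 and in 786O cells, with bars of 1 SE. In WT8 cells ARNTL (-2.48), DBP (-2.31) and NR1D1 (-1.19) lie furthest below 0, and PER2 (2.01) furthest above.

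An E-box (CACGTG) was found in the promoter windows of 5 of the 18 clock genes (27.8%). It was found in 7.43% of all promoters and 9.76% of those of genes tested. The window of PER1, 200 bases before to 20 after the start (chr17:8152385-8152604, minus strand, GRCh38.p14), is shown as that of an E-box gene that rose. Capitals mark the E-box.
PER1: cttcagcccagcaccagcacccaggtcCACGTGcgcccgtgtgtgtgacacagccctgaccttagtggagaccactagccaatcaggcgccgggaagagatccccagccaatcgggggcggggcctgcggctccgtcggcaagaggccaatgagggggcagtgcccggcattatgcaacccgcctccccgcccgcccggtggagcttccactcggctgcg
PER1 was at 13.4, 11.2 and 12.9 CPM with shControl and 15.7, 15.6 and 17.8 CPM with shBMAL1 (log2 fold change 0.39, SE 0.10, adjusted p = 0.0012).

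Interferon-induced genes, which encode antiviral effectors among others, were lower as a group. Of 41 tested, 34 were called lower and 2 higher, beside 36.9% and 32.9% of all genes, and the list median was -1.52. OASL, an oligoadenylate synthetase-like protein, was at 16.5, 15.7 and 15.8 CPM with shControl and 0.399, 0.775 and 0.428 CPM with shBMAL1 (log2 fold change -4.90, SE 0.18, adjusted p = 6.02e-23). IFI44 was at 9.54, 10.8 and 8.46 CPM with shControl and 1.3, 0.856 and 0.937 CPM with shBMAL1 (log2 fold change -3.21, SE 0.15, adjusted p = 9.88e-20), and IFIT1, which binds foreign RNA, at 36.8, 38.9 and 33.9 CPM with shControl and 5.26, 4.14 and 4.9 CPM with shBMAL1 (log2 fold change -2.94, SE 0.12, adjusted p = 8.48e-21). The shBMAL1 libraries lay below every control library in these 3 genes. MX2, a GTPase that blocks viruses, had no count in the shBMAL1 libraries, which is at least 19.2-fold lower against a floor of 3 counts in each library. IRF9 and STAT2, transcription factors of the interferon response, also fell, IRF9 from 36.1 ± 2.21 to 11.7 ± 1.25 CPM and STAT2 from 55.5 ± 1.38 to 39.2 ± 2.27 CPM. OAS3 and IFI35 were called higher, at log2 0.54 and 1.01. In 786O cells the list was lower as well, with 33 called lower, 1 higher and a median of -0.71, and the interaction was called more negative in WT8 for 26 genes and more positive for 4.

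The interferon-stimulated response element (ISRE, TTTC, any pair of bases, then TTTC again) was found in 22 of 33 matched promoters of this list (66.7%), beside 3.65% of all promoters. It is shown in capitals in windows of IFI44 (chr1:78649659-78649808, plus strand) and IFIT1 (chr10:89392493-89392642, plus strand), the genes with the largest changes that hold it within 130 bases before to 20 after the start (GRCh38.p14, level of at least 5 CPM).
IFI44: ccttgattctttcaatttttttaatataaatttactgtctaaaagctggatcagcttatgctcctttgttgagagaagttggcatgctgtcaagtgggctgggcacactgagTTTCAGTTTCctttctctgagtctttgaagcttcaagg
IFIT1: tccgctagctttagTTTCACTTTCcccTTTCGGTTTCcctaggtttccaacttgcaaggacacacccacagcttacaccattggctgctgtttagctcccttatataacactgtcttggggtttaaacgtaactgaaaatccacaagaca
IFIT1 holds the element in a pair and IFI44 once. IFIT1 overlaps LIPA on the opposite strand, and LIPA fell by log2 0.55.

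Cytokines and complement were lower in most members that were measured. Of 33 chemokine and cytokine genes, 25 passed the filter on low counts. Of these, 16 were called lower and 2 higher, beside 36.9% and 32.9% of all genes, and the median was -0.88. It was -1.27 when genes at or under 3 counts in every library of 1 WT8 group were set at that floor. For that value, 2 genes at or under 3 counts in every library of both WT8 groups were left out. A member that passed the filter only through the group where it was high had to differ, so these counts describe the members kept and no more. The same limit holds for every other list of which only some members were tested. CCL5, a chemokine for T cells, was at 7.91, 7.05 and 6.01 CPM with shControl and 0, 0 and 0.0803 CPM with shBMAL1, and IL1B, the inflammatory interleukin 1 beta, at 4.24, 4.9 and 4.76 CPM with shControl and 0.0797, 0 and 0 CPM with shBMAL1. Both were called lower and had at most 3 counts in each shBMAL1 library, so no fold is given. IL6, the acute phase cytokine, was at 35.1, 36.7 and 36.8 CPM with shControl and 6.19, 5.05 and 7.76 CPM with shBMAL1 (log2 fold change -2.51, SE 0.10, adjusted p = 1.73e-20). TNFSF10, the death ligand TRAIL, fell from 17.2 ± 0.573 to 1.8 ± 0.251 CPM. IL32, a proinflammatory cytokine, went the other way, from 71.2 ± 2.29 to 281 ± 15.3 CPM (log2 fold change 1.98, SE 0.05, adjusted p = 1.58e-28). The summed level of the chemokine and cytokine list, IL32 included, rose from 337.1 ± 5.42 CPM with shControl to 436.2 ± 17.8 CPM with shBMAL1. In a list of NF-kB subunits and inhibitors, 11 of 15 genes were called lower, with a median of -0.55. Among them TNFAIP3 fell from 29.2 ± 1.04 to 12.2 ± 0.918 CPM, NFKBIZ from 115 ± 2.9 to 49 ± 1.83 CPM and NFKBIE from 57.9 ± 2.78 to 27.4 ± 0.621 CPM.

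Of 21 complement and acute phase genes, 17 passed the filter, under the same limit, and the list median was -1.72. Of the 17, 12 were called lower and 3 higher, beside 36.9% and 32.9% of all genes. C3, the central complement protein, was at 61.4, 56.8 and 58 CPM with shControl and 4.54, 4.09 and 4.87 CPM with shBMAL1 (log2 fold change -3.71, SE 0.08, adjusted p = 1.44e-29). C1R, a protease of the classical pathway, fell from 8.64 ± 0.818 to 1.44 ± 0.329 CPM. C3 overlaps GPR108, and C1R overlaps C1RL, on the same strand. SAA1, serum amyloid A, fell from 252 ± 16.2 to 76.3 ± 2.09 CPM, although reads may be shared with its near copy SAA2, at log2 -1.69. LBP, which binds bacterial lipopolysaccharide, and CFI, an inhibitor of complement, were at 4.21 ± 0.232 and 3.53 ± 0.494 CPM with shControl and had at most 3 counts in each shBMAL1 library. Both were called lower.

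More genes of antigen presentation were lower than higher. Of 17 class I genes, which load peptides for cytotoxic T cells, 11 were called lower and 6 higher, beside 36.9% and 32.9% of all genes. The list median was -0.32. HLA-B fell from 443 ± 21.2 to 175 ± 9.78 CPM, HLA-C by log2 1.10 and HLA-F from 11.7 ± 2.42 to 3.97 ± 0.186 CPM, with the caution that these genes resemble each other closely. Of 11 class II genes, 6 were tested and 4 called lower. HLA-DMB, which edits the peptides on class II molecules, fell from 8.83 ± 1.09 to 1.36 ± 0.0987 CPM (log2 fold change -2.69, SE 0.20, adjusted p = 4.70e-14) but rose in 786O cells (log2 1.10), and CD74, the invariant chain, fell from 31.9 ± 2.14 to 21.9 ± 1.72 CPM.

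Genes of the extracellular matrix and of adhesion were mostly lower. Of 25 collagen and matrix genes, 17 were called lower and 4 higher, beside 36.9% and 32.9% of all genes, and the list median was -0.51. COL18A1, the precursor of endostatin, was at 414, 425 and 441 CPM with shControl and 87.7, 84.5 and 82.5 CPM with shBMAL1 (log2 fold change -2.33, SE 0.06, adjusted p = 1.00e-23). COL6A1 fell from 96.8 ± 0.564 to 31.2 ± 1.3 CPM and COL27A1 from 113 ± 2.3 to 49.4 ± 5.09 CPM. Of 26 integrin and laminin genes, 19 were called lower and 3 higher, and the list median was -0.67. LAMB2 fell from 555 ± 7.05 to 209.6 ± 15.2 CPM and LAMB3 from 439 ± 12.6 to 211 ± 11.3 CPM, both laminin chains of basement membranes. Among 17 metalloproteinases and their inhibitors, 11 were called lower and 3 higher. MMP2, the gelatinase, rose from 7.58 ± 1.23 to 16 ± 0.63 CPM while MMP1 fell, and TIMP2, which binds MMP2, fell from 162 ± 6.31 to 52.9 ± 0.346 CPM. Of the 5 genes of the plasminogen system, 3 were called lower and 2 higher. PLAU, the urokinase, fell from 137 ± 2.54 to 82.3 ± 2.02 CPM, its receptor PLAUR by log2 0.53, and the inhibitor SERPINE2 from 32 ± 1.17 to 6.35 ± 0.62 CPM. The tissue activator PLAT rose from 2.16 ± 0.323 to 6.51 ± 0.668 CPM. SERPINB2, an inhibitor of the activators, had no count in the shControl libraries and was at 1.7, 1.93 and 1.9 CPM with shBMAL1, which is at least 22.1-fold higher against a floor of 3 counts in each library.

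Cadherins and transcription factors of the epithelial to mesenchymal transition did not share a direction, with 4 of 16 called higher and 6 lower. CDH16, the kidney cadherin, was at 75, 70.4 and 75.5 CPM with shControl and 10.8, 8.56 and 8.27 CPM with shBMAL1 (log2 fold change -3.0, SE 0.08, adjusted p = 7.43e-27). CLDN1, a tight junction protein, fell from 73 ± 4.83 to 37 ± 3.42 CPM, and ZEB2, a repressor of E-cadherin, rose from 34.2 ± 0.888 to 56.7 ± 2.87 CPM. Of 15 renal lineage genes tested, 12 were called lower, beside 36.9% of all genes, and the list median was -0.95. AQP1, the water channel of the proximal tubule, fell from 9.92 ± 0.889 to 2.89 ± 0.742 CPM, GGT1, a brush border enzyme, from 54.4 ± 1.29 to 18.5 ± 1.35 CPM, and KRT18, an epithelial keratin, from 479 ± 16.2 to 269 ± 10.4 CPM. In 786O cells the median of this list was 0.16.

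Signalling genes that respond within minutes to growth factors were lower as well. Of 14 immediate early genes, 12 were called lower and 1 higher, beside 36.9% and 32.9% of all genes, and the list median was -0.87. EGR1 was at 50.8, 50.2 and 61.3 CPM with shControl and 6.17, 7.54 and 8.25 CPM with shBMAL1 (log2 fold change -2.89, SE 0.10, adjusted p = 1.15e-20), and FOS at 31.9, 31.1 and 31.8 CPM with shControl and 5.58, 6.66 and 7.39 CPM with shBMAL1 (log2 fold change -2.27, SE 0.09, adjusted p = 1.70e-21). Neither gene overlapped between the groups, and in 786O cells both were called higher, at log2 0.66 and 0.88. JUNB, a partner of FOS, fell from 93.5 ± 0.308 to 47.4 ± 1.84 CPM. Among genes that respond to glucocorticoids or glucose, TXNIP, the thioredoxin inhibitor, fell from 17.9 ± 1.75 to 2.37 ± 0.167 CPM, ARRDC3 from 104 ± 5.74 to 18.1 ± 1.07 CPM, and FKBP5, a chaperone of the glucocorticoid receptor, rose from 11.5 ± 1.81 to 38.8 ± 2.69 CPM.

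Receptor tyrosine kinases were split, with 4 of 14 called higher and 7 lower. MET, the receptor of hepatocyte growth factor, fell from 457 ± 10 to 247 ± 3.15 CPM, and EGFR from 178 ± 4.87 to 111 ± 10.4 CPM. TYRO3, of the TAM receptor family, rose from 35.8 ± 2.05 to 51.1 ± 4.2 CPM. In the TGF-beta pathway, 9 of 18 genes were called lower and 3 higher, with the receptor TGFBR2 falling from 83.1 ± 0.599 to 48.6 ± 4.24 CPM, its mediator SMAD3 from 65.5 ± 1.48 to 37.6 ± 1.58 CPM, and the target ID3 rising from 16.6 ± 1.42 to 34.6 ± 0.796 CPM. Of 16 YAP and TEAD genes, 10 were called higher and 2 lower, beside 32.9% and 36.9% of all genes, and the list median was 0.22. ANKRD1 led them, and the kinase LATS2 rose from 42.2 ± 0.569 to 76.2 ± 4.41 CPM and the factor TEAD4 from 44 ± 1.16 to 73.6 ± 2.07 CPM.

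Of 8 endothelial-type receptor genes tested, of 17 listed, 4 were called lower, and apart from TIE1 they had few counts. CCM2L, a scaffold of endothelial signalling, was at 4.13 ± 0.475 CPM with shControl and 1.38 ± 0.268 CPM with shBMAL1, and ENG, a TGF-beta coreceptor, at 1.26 ± 0.16 and 0.16 ± 0.106 CPM.

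Metabolic and housekeeping groups had smaller medians, and several were higher. Of 76 nuclear genes of the respiratory chain, 54 were called higher, beside 32.9% of all genes, and 9 lower, with a median of 0.26. ATP5G1 and ATP5J, subunits of the ATP synthase, rose from 53.1 ± 3.5 to 96 ± 6.41 CPM and from 48.4 ± 1.86 to 81.2 ± 3.54 CPM, but the catalytic subunit ATP5B fell from 1016 ± 24.4 to 436 ± 13.4 CPM (log2 fold change -1.22, SE 0.04, adjusted p = 1.17e-23). Of the 13 mitochondrially encoded genes, 5 were called lower, which is near the 36.9% of all genes, and 0 higher. The list median was -0.05, so no direction is read for the list. Those called lower included ND3 (from 1097 ± 86 to 623 ± 95.1 CPM), COX2 (from 6469 ± 335 to 5156 ± 419 CPM) and CYTB (from 3079 ± 165 to 2488 ± 348 CPM). Of 77 mitochondrial ribosomal proteins, 58 were called higher and 4 lower, and the list median was 0.29. MRPL23 rose from 20.5 ± 1.65 to 41.9 ± 3.11 CPM and MRPL42 from 40.4 ± 4.41 to 81.6 ± 4.29 CPM, and MRPS27 fell from 21.1 ± 1.0 to 11 ± 0.912 CPM. Subunits of the proteasome, which degrades ubiquitinated proteins, were higher in 26 of 34 cases and lower in 3, with a median of 0.43. PSMC3, an ATPase of its cap, rose from 130.2 ± 9.51 to 251 ± 8.89 CPM, the deubiquitinase PSMD14 from 77 ± 2.75 to 136 ± 4.89 CPM, and PSMB3 from 90.1 ± 3.4 to 157 ± 9.8 CPM.

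Cholesterol synthesis was higher in WT8 cells and lower in 786O cells. Of 23 genes, 18 rose and 3 fell in WT8, beside 32.9% and 36.9% of all genes, for a median of 0.39. In 786O cells 19 were called lower, beside 24.4% of all genes, for a median of -0.35. HMGCS1, which makes the precursor of mevalonate, was at 62, 65 and 59.9 CPM with shControl and 149.8, 147 and 144 CPM with shBMAL1 (log2 fold change 1.24, SE 0.05, adjusted p = 3.16e-23). Its change differed between the lines (interaction log2 1.63, SE 0.06, adjusted p = 2.64e-22). STARD4, a sterol carrier, rose from 13.2 ± 1.55 to 35.1 ± 1.48 CPM, and HSD17B7, a late enzyme of the pathway, from 11.6 ± 1.03 to 27.1 ± 2.3 CPM. Fatty acid synthesis was not higher with it, since 5 of 9 genes were called lower and 2 higher. ACLY, which makes cytosolic acetyl-CoA, fell from 420.0 ± 12.8 to 292 ± 22.6 CPM, ACSS2, an acetyl-CoA synthetase, from 56.5 ± 1.85 to 32.2 ± 2.39 CPM, and the regulator SREBF1 from 220.1 ± 9.18 to 139 ± 5.5 CPM.

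Lysosomal genes were lower. Of 36, 30 were called lower and 5 higher, beside 36.9% and 32.9% of all genes. The list median was -0.43 in WT8 and -0.05 in 786O cells. GAA, which degrades glycogen, was at 201, 188 and 196 CPM with shControl and 46.4, 54.4 and 52 CPM with shBMAL1 (log2 fold change -1.94, SE 0.06, adjusted p = 1.31e-25). The protease CTSB fell from 399.6 ± 20.6 to 184 ± 6.5 CPM, and SGSH, a sulfatase, rose from 10.4 ± 1.14 to 24.6 ± 1.53 CPM. ER chaperones were lower in 10 of 17 cases and higher in 5, with HYOU1, a large chaperone of the ER, falling from 557 ± 14 to 165 ± 9.27 CPM, and XBP1, a factor of the unfolded protein response, and SDF2L1 rising from 96.3 ± 3.27 to 148 ± 1.66 CPM and from 18.4 ± 0.528 to 27.5 ± 1.26 CPM. Of 16 genes of the ATF4 amino acid response, 9 were called lower and 4 higher, among them TRIB3 (from 158 ± 11.6 to 59.8 ± 2.94 CPM), ATF5 (from 34.2 ± 3.94 to 16.2 ± 2.09 CPM) and the amino acid transporter SLC3A2 (from 549.5 ± 11.5 to 285 ± 10.8 CPM), all of which fell.

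The translation lists had medians near 0. Of 79 cytosolic ribosomal proteins, 29 were called higher and 28 lower, and the list median was 0.05. RPS16 fell from 588 ± 50.5 to 338 ± 12.3 CPM and RPL32 from 322 ± 22.1 to 208 ± 14 CPM. RPL9, at 95.2, 84.6 and 90.3 CPM with shControl and 75.4, 29.7 and 32.4 CPM with shBMAL1 (log2 fold change -0.97, SE 0.31, adjusted p = 0.023), had 1 shBMAL1 library near its controls, and its call was lost when WT8 libraries were fitted alone (adjusted p = 0.118). Of 37 ribosome biogenesis genes, 16 were called higher and 15 lower, with the chaperone NPM1 rising from 496 ± 8.49 to 751 ± 20.4 CPM, the methyltransferase FBL from 109 ± 7.78 to 155 ± 8.35 CPM, and the pseudouridine synthase DKC1 falling from 514 ± 21.4 to 271 ± 3.36 CPM. Of 20 tRNA synthetases, 11 were called higher and 6 lower, with FARSB rising from 56.3 ± 0.749 to 109 ± 5.34 CPM, DARS from 76 ± 3.05 to 114 ± 7.17 CPM and WARS falling from 219.9 ± 6.32 to 104 ± 1.46 CPM. Of 18 NRF2 targets, 8 were called in each direction, with OSGIN1 rising from 16.9 ± 0.612 to 53.3 ± 7.55 CPM and AKR1C3 falling from 9.83 ± 1.07 to 2.31 ± 0.275 CPM. The plot of list medians places the proliferation lists above all others and the interferon, complement and class II lists at the low end.

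**Figure D5:**
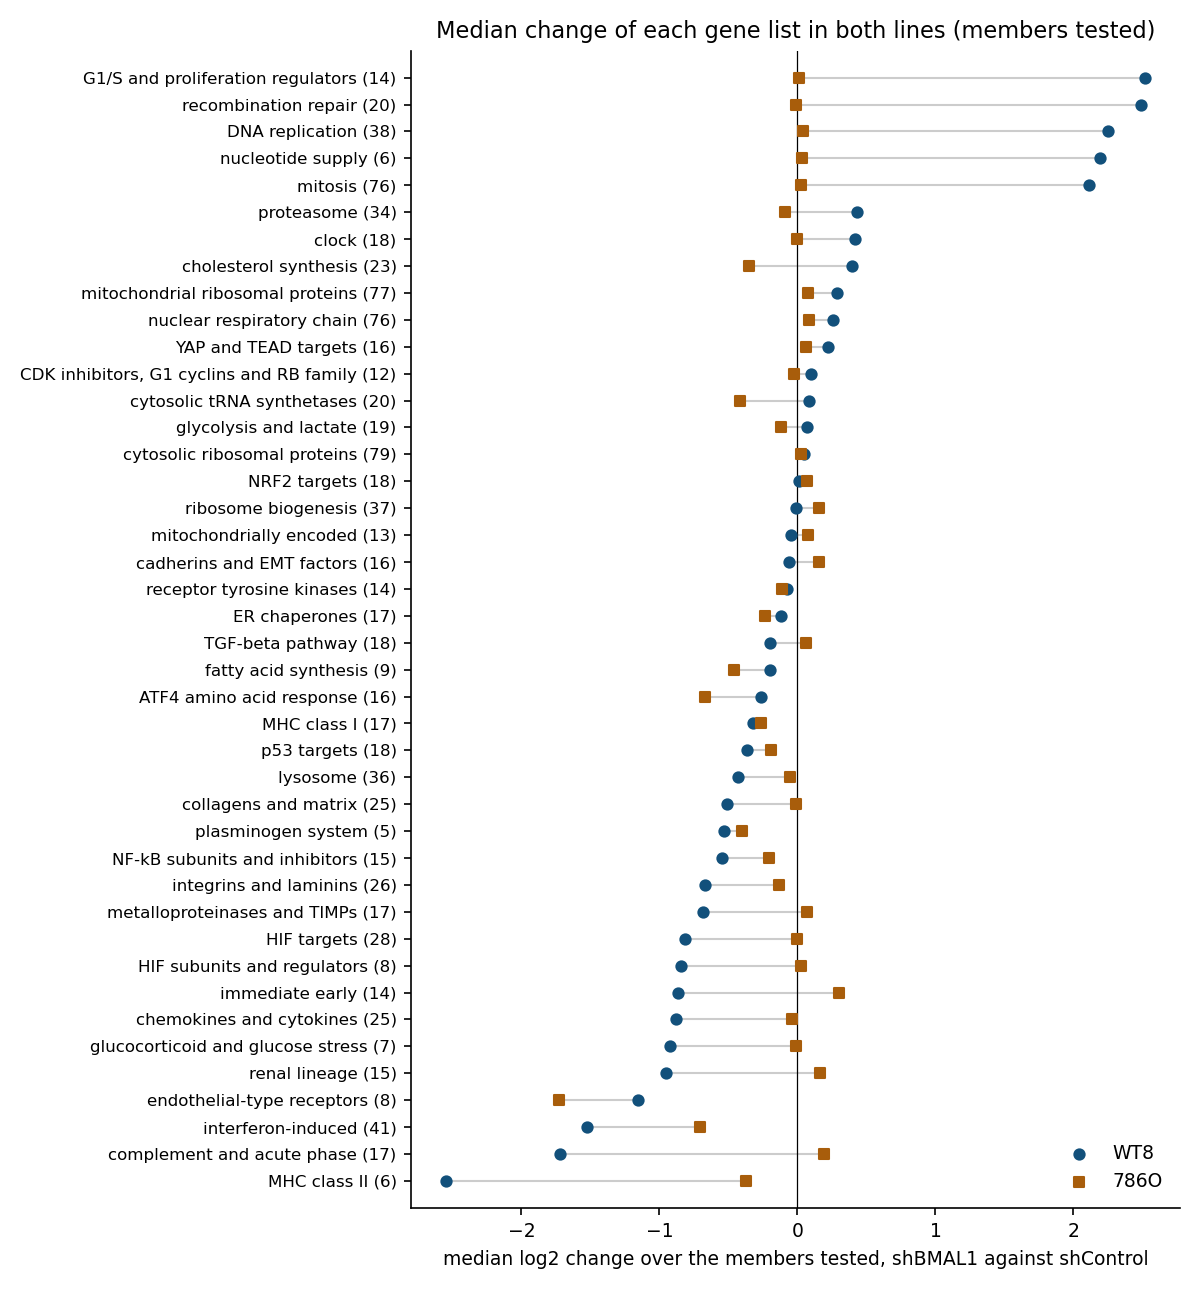
Median log2 fold change of shBMAL1 against shControl over the genes tested in each of 42 gene lists, in WT8 and in 786O cells. In WT8 cells the 5 proliferation lists have medians of 2.12 to 2.52, while in 786O cells they lie near 0, and the cholesterol synthesis list has medians of opposite sign in the lines.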

How the data were processed

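RNA of the 12 cultures was extracted with RNeasy kits and sequenced as stranded mRNA libraries on DNBSEQ by BGI, per the labels. The study's methods name SeqMan NGen and ArrayStar on GRCh37, whereas the processing notes of the submitters name STAR, DESeq2 and hg38. The annotation and the use of strand in counting are not given in the sources used here, so genes that overlap another gene (68 of the 179 named genes) or have near copies are uncertain. The deposited values were expected counts on a linear scale, not scaled between libraries: 0.028 stood for 0 (47.0% of values) and 5.67% of the others were not whole. The tests were planned for whole counts, so values were rounded for edgeR. The 38074 lines, of 38021 names, were summed by name.

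Of 26925 genes with a count, filterByExpr kept 16838. A group-means model over 12 libraries was fitted with edgeR 4.0.16 (TMM, factors 0.948 to 1.04, robust quasi-likelihood F test, R 4.3.3), with Benjamini-Hochberg adjustment over all genes tested and calls at 0.1, the false discovery rate of the study. The interaction is the change in WT8 minus that in 786O. All adjusted p-values are from this test. SE was taken as the absolute log2 change over the root of F. The common coefficient of variation was 5.70%. Replicate libraries correlated at 0.991 to 0.992. A count of 2 was more frequent (14754) than a count of 1 (11117), so mates appear to have been counted separately. Floors of 3 counts per library cover counting error only. On simulated data of 16634 genes for this comparison, 82.1%, 93.9% and 97.0% of genes changed 1.5-, 2- and 4-fold were recovered, with 8 false calls. The simulation changed only 67, 66 and 66 genes at these folds and gave every gene the same coefficient of variation. In the data most genes were called, so the simulated false calls do not measure those among the calls here.

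Lists, members and tests were chosen with earlier results of these data known. Genes named were ARNTL, VHL, HIF subunits, CLOCK, MKI67, the 10 largest rises and falls outside the proliferation lists, the 5 largest rises within them, the 3 largest changes of each other list (called, no overlap, at least 5 CPM), the 5 largest rises and falls by CPM among changes over 2-fold, and all clock and cyclin inhibitor genes. Other members are named as examples of their list and were chosen after their values were seen. Replicate numbers did not pair the samples (correlations of deviations -0.0162, -0.0456 and -0.0203). Positions are from GENCODE version 44 on GRCh37, and promoter windows from RefSeq on GRCh38.p14 (first start listed per gene). Alternatives were DESeq2 1.42.0, other scalings, filters and thresholds, WT8 libraries alone, a replicate block, and each library left out in turn. The values of some members are not reported here.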

Additional observations from a re-analysis of the deposited data

Results flagged for a closer look

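The change with shBMAL1 differed between WT8 and 786O cells for 9427 of the 16838 genes tested, by the interaction term of the edgeR fit. Of the named genes, 175 were tested, 161 had a called interaction, and 39 were called in opposite directions in the lines with a called interaction. The values that follow are interaction log2 values, the change in WT8 minus that in 786O.

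Among those that fell in WT8 and rose in 786O, the interaction was -7.62 for MMP1, -5.40 for IGFBP1, -4.70 for SERPINF2, -4.0 for ANGPTL4, -3.99 for CDH16 and -3.79 for HLA-DMB. It was -3.54 for EGR1, -3.17 for C1R, -3.16 for FOS, -3.09 for IGFBP3, -3.08 for AKR1C3 and -3.02 for CD24. It was -2.24 for COL6A1, -2.22 for GAA, -2.00 for PLOD2, -1.79 for NFKBIZ, -1.52 for HIF1A and -1.34 for KRT18. Smaller values were -1.28 for JUNB, -1.12 for NPAS2, -1.02 for NFIL3 and -0.77 for PLAUR.

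Among those that rose in WT8 and fell in 786O, the interaction was 3.38 for ESCO2, 2.10 for FLG, 1.63 for HMGCS1, 1.61 for DDB2, 1.58 for STARD4 and 1.48 for HSD17B7. It was 1.44 for TUBB, 1.38 for PER3, 1.11 for PSMC3, 1.09 for PER1, 1.04 for TEF and 1.00 for RB1. It was 0.98 for SDF2L1, 0.83 for XBP1, 0.68 for TYRO3, 0.61 for FBL and 0.58 for CDK4.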

How the results depend on the processing

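The proliferation result changed little. Over all alternatives 150 to 154 of its 154 genes were called, and its median stayed between 2.22 and 2.29. With a fold change over 1.5 required as well, the calls were 6037 in WT8 (2396 higher, 3641 lower), 2409 in 786O (1125 and 1284), 4932 for the interaction (2185 and 2747) and 5887 outside the proliferation lists (2246 and 3641). With a mean of at least 50 counts required, 1142 genes were over 2-fold lower, and 684 outside the lists over 2-fold higher. The median outside the lists, -0.049, was -0.055 with RLE scaling, -0.012 with TMM computed without the proliferation genes, -0.036 without a filter, -0.024 with the 50-count filter and -0.020 in WT8 libraries alone. Leaving out each library in turn gave -0.048 to -0.040, 11281 to 11938 calls in WT8, 153 to 154 proliferation calls and 9028 to 9233 interaction calls. With a replicate block, 11580 genes were called in WT8 (5465 higher, 6115 lower), 7982 in 786O, 9181 for the interaction and 154 of the proliferation genes, and since the numbers did not pair the samples this is given only here. Of the named genes, calls were lost for CIART in 6 alternatives, RBL2 in 7, CDKN1A in 2 and RPL9 in 1, and ARNT was called in 2. List medians near 0 changed sign in some alternatives for ribosome biogenesis, mitochondrially encoded genes, NRF2 targets, cadherins and receptor tyrosine kinases, so no direction is read from them. Short lists of scarce genes moved most, from -4.64 to -0.42 for endothelial-type receptors, -2.66 to -1.50 for MHC class II and -1.05 to -0.31 for chemokines and cytokines.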

Other observations

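Further families, all chosen after their values were seen, are given here beside the 32.9% of all genes called higher and 36.9% called lower in WT8 cells. Of 20 nucleoporin genes, which build the nuclear pore, 18 were called higher with shBMAL1 and 1 lower, with a median log2 fold change of 0.77. The APOBEC3 cytidine deaminases, near copies of each other, were mixed and had a median of 1.21 over 6 genes, with 4 called higher, 1 lower and 1 not called, against a median of -0.58 in 786O cells. RNA polymerase II subunits (POLR2 genes) were called higher in 7 of 12 cases and lower in 1, none over 2-fold, with a median of 0.26.

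Clustered histone genes did not follow the replication genes in these libraries. Of 70 such genes 25 were tested, and 13 were called lower with shBMAL1 and 2 higher, with a median of -0.92, while in 786O cells 16 were called higher, with a median of 1.45. Most replication-dependent histone transcripts lack a poly(A) tail, so mRNA libraries hold only part of them. Of 6 metallothioneins, which bind zinc, 6 were called lower, with a median of -0.57, and 4 of 4 IFITM genes, membrane proteins induced by interferon, were called lower, with a median of -2.59.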
